A study of Triticum turgidum subsp. durum with 8 samples.

Results

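miR1120 and miR1122 are a pair of wheat small RNA families whose sequences resemble miniature inverted-repeat transposable elements (MITEs). The members described here were all sequences of the deposited miRNA table named for one of these families. Each distinct sequence was counted once, which gave 115 of 1473 sequences, 71 of miR1120 and 44 of miR1122. The table covers seedling shoots of 2 durum wheat genotypes, the breeding line L6, which is sensitive to combined water deficit and heat, and the cultivar DBA Aurora, which tolerates it. The parents had grown under control conditions (CG) or under water deficit and heat (WH). Their progeny received either a complete nutrient solution (C) or the same solution lacking nitrogen (N). This gave 8 libraries, AuCG_C and AuCG_N, AuWH_C and AuWH_N, L6CG_C and L6CG_N, and L6WH_C and L6WH_N. Each library held RNA pooled equally from 6 plants taken at 3 weeks, so no condition had a replicate library and plant-to-plant spread was not measured.

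MITEs are short DNA transposons that encode no transposase and end in inverted repeats. Because the ends pair with each other, a transcript that runs through a MITE folds into a hairpin, from which Dicer-like enzymes can release small RNAs of either arm. In the Stowaway group, which is abundant in grass genomes, the inverted repeat holds the letters CTCCCTCCG. Hairpin products of 21 nt are typical of plant miRNAs, whereas 24 nt products are typical of the small interfering RNAs that direct DNA methylation at transposons. Whether the members act as miRNAs was not measured in these libraries.

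The sequences below carry the main results and are printed 5′ to 3′ in the DNA letters of the deposited table. Capitals mark GACGGAGG, which overlaps the reverse complement of the Stowaway terminal repeat. The first group shows 4 of the 11 overlapping 3′ arm products listed as tae-MIR1120a-p3, the second shows 3 of the 5 listed as tae-MIR1122c-p3, and the third shows the barley-named hvu-miR1120 and the 5′ arm product of MIR1122a, both abundant.
tae-MIR1120a-p3_11: ttcttatattatgaGACGGAGGga
tae-MIR1120a-p3_3: cttatattatgaGACGGAGGgagt
tae-MIR1120a-p3_10: ttatattatgaGACGGAGGgagta
tae-MIR1120a-p3_1: atattatgaGACGGAGGgagt
tae-MIR1122c-p3_1: atattatggGACGGAGGgagt
tae-MIR1122c-p3_4: tattatggGACGGAGGgagta
tae-MIR1122c-p3_5: ttatggGACGGAGGgagtagt
hvu-miR1120_L-4R+1_1ss10TC: tcttacattatggGACGGAGG
tae-MIR1122a-p5: caagaattttggGACGGAGGgagt

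Counted from 1 at the 5′ end, tae-MIR1120a-p3_1 and tae-MIR1122c-p3_1 differed by A9G only. Of miR1122, 10 of the 44 members shared a stretch of 18 bases with a miR1120 member. GACGGAGG was found in 49 members, and its reverse complement CCTCCGTC in 8 others. Together they marked 57 of 115 members (49.6%), against 292 of all 1473 sequences (19.8%) and 53 of the 216 of miR1128 (24.5%), another MITE-like wheat family. The letters were placed by arm, since GACGGAGG lay on the 3′ arm in 48 of 49 members and CCTCCGTC on the 5′ arm in 8 of 8. GGAGGGAG or its reverse complement CTCCCTCC, which overlap the first motif, occurred in 40 members (34.8%), against 15.8% of all sequences. As families differ in many features at once, these shares are descriptions of the letters and were not tested.

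Bases 2 to 8 of a miRNA form the seed. The members held 56 different seeds, of which 3 occurred in both families. The most frequent, TATTATG, was shared by 14 members (4 of miR1120 and 10 of miR1122), all on the 3′ arm. CCGTCCC was shared by 11 members (10 of miR1120 and 1 of miR1122), all on the 5′ arm, and TTATATT by 8 miR1120 members on the 3′ arm. The members below, with the seed in capitals, show these 3 groups and the seeds of the 8 abundant members described further on.
tae-MIR1120a-p3_1: aTATTATGagacggagggagt
tae-MIR1122c-p3_1: aTATTATGggacggagggagt
tae-MIR1120a-p5_1ss20AT: tCCGTCCCataatataagatc
tae-MIR1122c-p5_2ss4AG21GC: tCCGTCCCataatgtaagacc
tae-MIR1120a-p3_3: cTTATATTatgagacggagggagt
tae-MIR1120b-p3_2ss8GA18GA: tTATATTAtgggacagaagga
tae-MIR1120c-p5_1ss18AG: aTATAAGAacgtttttggcact
tae-MIR1120c-p3: tTCTTATAttttgggacagag
tae-MIR1122a-p3_1ss13AG: aTACGGATgtatgtagacatatt
hvu-miR1120_L-4R+1_1ss10TC: tCTTACATtatgggacggagg
tae-MIR1122a-p5: cAAGAATTttgggacggagggagt
tae-miR1122b-3p_1ss11GT: aGACTTATatttaggaacgga
tae-MIR1122b-p5_2ss7GA17TG: cTAAATATaagtctttgtagagat

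miR1120 had 42 members on the 3′ arm and 29 on the 5′ arm, whereas miR1122 had 39 and 5. In length, 58 members were 21 nt and 36 were 24 nt. On the miR1122 3′ arm these classes were of similar size (19 of 21 nt and 15 of 24 nt), and on the miR1120 5′ arm 20 were 21 nt and 6 were 24 nt. An overlap of 18 bases with another member was seen for 90 of the 115 members, and 43 were complementary to another member over 18 bases. A further kind of overlap crossed family names, as 58 members shared 18 bases with a sequence filed under another family, most often miR1436 (33 members), miR1130 (27) and miR818 (22). The first listed precursors of the members lay at 110 places, on all 14 sequences of the durum genome Svevo.v1 that hold an entry of the table. The median precursor was 93 nt (range 63 to 295) with a minimum free energy of -0.57 kcal/mol per nt, against -0.54 for all sequences. Where it could be searched, the precursor held a near-complement of the member (at most 3 mismatches) for 76 of 107 members (71%), against 60.4% of all sequences, 82.9% of miR1128 and 81.1% of the other MITE-like wheat families. Most members (102) were placed by the study in its group 2, for reads that match a known miRNA while the known precursor could not be mapped to the durum genome.

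The deposited values are labelled as normalized reads counts, and the scaling factor is not stated. They were given per name and not per sequence. All 107 names in the table that stand for several numbered sequences carried a single set of 8 values for all of them. The 115 members thus held 89 sets of values. The largest shared sets were those of tae-MIR1120a-p3 (11 sequences) and of tae-MIR1122c-p3 and tae-MIR1120a-p5 (5 sequences each). Sequences of 1 set cannot be told apart by their values and are not independent, so the main counts of members below are also given in sets. Low values came in steps of 0.649 (L6WH_N) to 1.57 (AuCG_N), read here as the worth of 1 read. Whole reads could not be recovered for the whole table, so this reading is provisional. The lowest listed member value was 5 steps in every library, 3.25 to 7.84. A member listed at 0 may therefore have been present below that level.

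The families were dominated by 8 abundant members, those with a mean of 100 or more, which made up 93.6% to 95.7% of the 2 families' summed counts (each set of values counted once). The members together took 0.624% to 1.39% of the summed counts of the table. The most abundant was tae-MIR1120b-p3_2ss8GA18GA, a 3′ arm product with counts of 2853.8 in AuCG_C, 2077.0 in AuCG_N, 4036.8 in AuWH_C, 2231.2 in AuWH_N, 3583.5 in L6CG_C, 3834.4 in L6CG_N, 3011.0 in L6WH_C and 2487.6 in L6WH_N. It was lower without nitrogen in 3 of the 4 seed groups and higher in L6CG, and the C and N ranges overlapped. tae-MIR1120c-p5_1ss18AG, a 5′ arm product, had counts of 2080.2, 1029.9, 1989.5, 1680.0, 1955.3, 2535.5, 2430.7 and 1720.3 in the same order of libraries. Its lowest library was AuCG_N, its highest was L6CG_N, and the C libraries lay between those extremes.

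The barley-named hvu-miR1120_L-4R+1_1ss10TC was among the steadiest abundant members. Its counts were 917.7, 758.7, 842.9, 737.6, 923.5, 753.4, 782.1 and 711.9 in the same order, a coefficient of variation of 10.2% over the 8 libraries. The 4 C libraries, at 782.1 to 923.5, all lay above the 4 N libraries, at 711.9 to 758.7. The fitted difference was small (log2 -0.22, SE 0.16) and did not pass the test (limma, adjusted p = 0.389). tae-MIR1120c-p3, the partner arm of MIR1120c, was the least abundant of the 8, with counts of 169.1, 130.1, 232.1, 147.3, 156.2, 197.6, 137.2 and 143.0. Its C and N libraries overlapped.

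Of miR1122, the products of both arms of MIR1122a were abundant. The 3′ arm product tae-MIR1122a-p3_1ss13AG had counts of 2284.2, 1859.1, 1037.5, 1962.1, 1187.5, 3108.8, 2476.0 and 2103.1. It varied most of the 8 (coefficient of variation 33.5%), with its lowest levels in AuWH_C and L6CG_C. The 5′ arm product tae-MIR1122a-p5 had counts of 2259.6, 1689.3, 1543.3, 1977.4, 1547.9, 1684.2, 2376.6 and 1996.9. AuCG_C and L6WH_C were its highest libraries. tae-miR1122b-3p_1ss11GT had counts of 1513.3, 1372.4, 1205.8, 1332.7, 1176.7, 1109.6, 1214.5 and 1237.4 (coefficient of variation 10.2%). Its partner from the 5′ arm, tae-MIR1122b-p5_2ss7GA17TG, had counts of 334.2, 232.8, 281.4, 310.6, 331.9, 344.7, 546.2 and 283.1. Only L6WH_C stood apart for it, at 546.2. None of the 8 abundant members passed the test for nitrogen, parental stress or genotype, with nitrogen differences from log2 -0.37 (tae-MIR1120b-p3_2ss8GA18GA, SE 0.24) to 0.44 (tae-MIR1122a-p3_1ss13AG, SE 0.34).

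**Figure D1:**
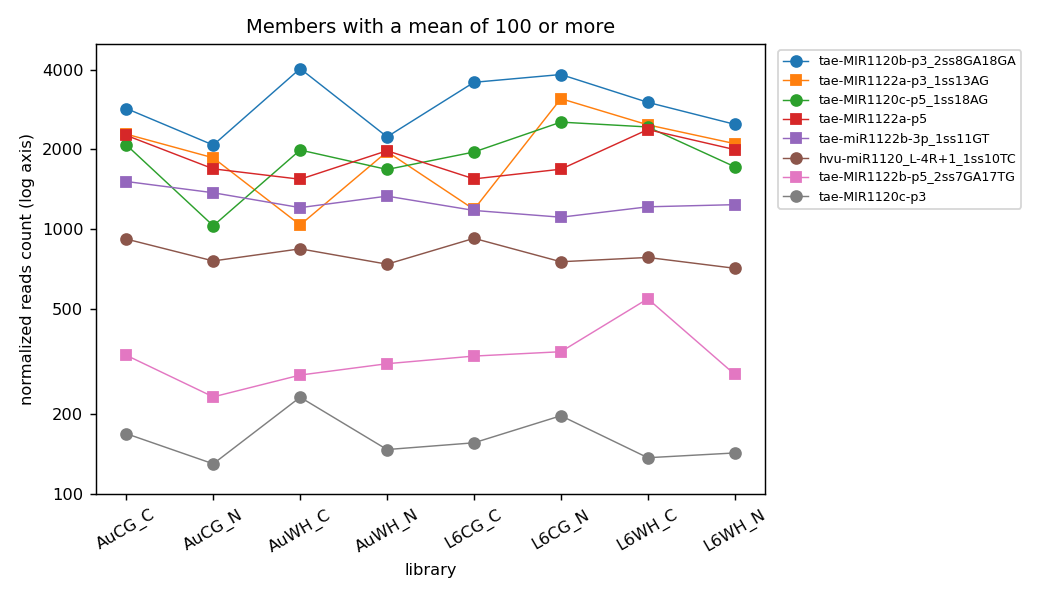
Normalized reads count (y axis, log scale) of the 8 members with a mean of 100 or more in each of the 8 libraries (x axis). Circles are miR1120, squares are miR1122, and lines only join the values of one member. tae-MIR1120b-p3_2ss8GA18GA ran from 2077.0 to 4036.8, and tae-MIR1120c-p3 from 130.1 to 232.1.

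For 5 hairpins both arms were listed, so that the listed products could be compared within each library. In each of the 5, at least 1 product was not found letter for letter in the deposited precursor. Whether both arms came from the same locus was not tested. For MIR1122c the 3′ arm value is in addition shared with other precursors. In MIR1120c the 5′ arm exceeded the 3′ arm by 7.92-fold (AuCG_N) to 17.7-fold (L6WH_C). MIR1120b was the opposite, with the 3′ arm 30.2-fold (AuWH_N) to 85.0-fold (AuCG_C) above tae-MIR1120b-p5_1ss10AG. In MIR1122b the 3′ arm was 2.22-fold (L6WH_C) to 5.90-fold (AuCG_N) higher. The arms of MIR1122a were closer to each other, with ratios of 3′ over 5′ from 0.672 (AuWH_C) to 1.85 (L6CG_N). Thus the dominant arm of MIR1120b, MIR1120c and MIR1122b was the same in all 8 libraries, while that of MIR1122a was not.

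For MIR1122c the 3′ arm value was that of the tae-MIR1122c-p3 set, given for 5 sequences with precursors of 85 to 123 nt. Its ratio to the 5′ arm is therefore not a comparison within a single hairpin. This ratio changed most in L6. The 3′ arm set stood above tae-MIR1122c-p5_2ss4AG21GC in 7 libraries, by up to 6.60-fold (AuWH_N), and the ratio was 0.918 in L6WH_N. The 5′ arm product itself had counts of 17 in AuCG_C, 7.84 in AuCG_N, 26.3 in AuWH_C, 5.09 in AuWH_N, 18.3 in L6CG_C, 46.8 in L6CG_N, 18.7 in L6WH_C and 39.6 in L6WH_N. It was lower without nitrogen in both DBA Aurora pairs and higher in both L6 pairs. The difference between the genotypes in the nitrogen effect was log2 2.77 (SE 0.68), with an adjusted p = 0.702 over all sequences in limma, and so did not pass the test. Beside it, 0 of the 605 sequences tested passed for this interaction (0%), and 34 had an unadjusted p under 0.05.

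**Figure D2:**
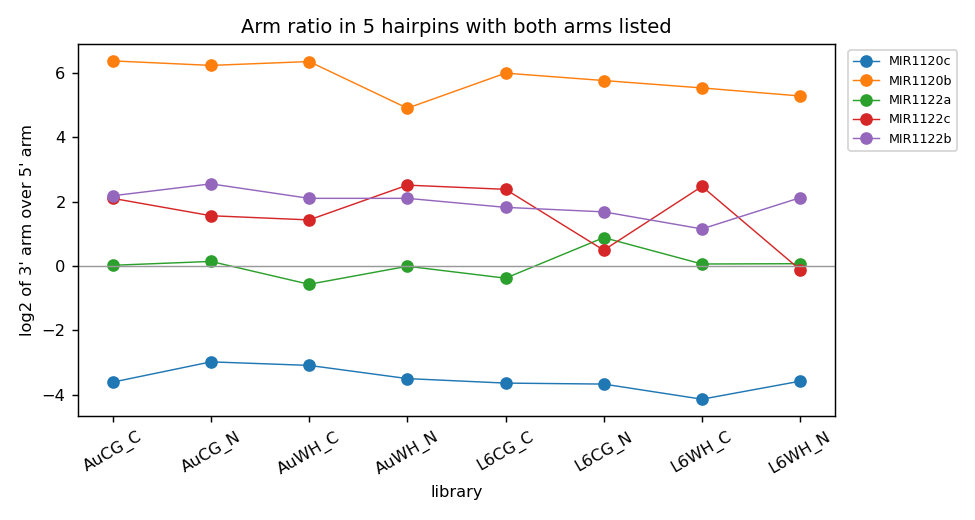
Log2 ratio of the 3′ arm to the 5′ arm (y axis) in the 8 libraries (x axis) for the 5 hairpins with both arms listed, with lines joining the values of one hairpin. MIR1120b stayed between 4.90 and 6.37, MIR1120c between -4.14 and -2.98, and MIR1122c fell to 0.49 in L6CG_N and -0.12 in L6WH_N. The MIR1122c 3′ arm value is that of the whole tae-MIR1122c-p3 set, which covers several precursors.

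To ask how the members responded to nitrogen starvation, parental stress and genotype, an additive model of the 3 factors was fitted with limma to log2(count + 1). Each factor then compared 4 libraries with 4 others, leaving 4 residual degrees of freedom. All 605 sequences with a mean of at least 10 were tested together, and p-values were adjusted by the Benjamini-Hochberg method and read against 0.05. Of the members, 46 in 28 sets of values entered (31 of miR1120 and 15 of miR1122). The other 69, in 61 sets, had means of 0.936 to 9.09 and were too low to test. Differences are on the log2(count + 1) scale. It understates the change of low members that are listed above 0 throughout, and it can overstate that of members listed at 0, since a 0 may stand for any level below the lowest listed value.

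Without nitrogen, 16 of the 46 tested members fell and 0 rose. Among all 605 sequences 151 were called (25%), 93 of them lower (15.4%) and 58 higher (9.59%). With equal library totals the split over all sequences was 104 lower and 40 higher, with quantile normalization it was 76 and 80, and that of the members was 16 and 0 or 11 and 0. Leaving out 1 library gave 95 to 166 calls over all sequences, with 95 without AuCG_C, 96 without AuWH_N, 97 without L6CG_C and 96 without L6WH_N. The 16 members stand for only 2 of the 28 sets, however, against 129 of 538 sets called in the fit over distinct sets (24%), 75 of them lower (13.9%). Counted in sets, the members' share was thus below the background. The median nitrogen difference of the 28 sets was log2 -0.23, with 21 sets below 0 and 7 above. The median was -0.04 over all tested sets and -0.06 over all tested sequences. Of the 605 sequences, 320 lay below 0, or 383 with equal library totals and 257 with quantile normalization. In pooled shoots, fewer cells of a type and less RNA per cell cannot be told apart.

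The tae-MIR1120a-p3 set, the 11 overlapping sequences shown above, had counts of 17.9 in AuCG_C and 0 in AuCG_N, 23.7 in AuWH_C and 0 in AuWH_N, 28.0 in L6CG_C and 13.7 in L6CG_N, and 56.0 in L6WH_C and 7.79 in L6WH_N. All C libraries lay above all N libraries. In L6 the level was 2.05-fold lower without nitrogen in progeny of control parents and 7.19-fold lower in progeny of stressed parents, and in DBA Aurora it was listed at 0 without nitrogen, where the lowest listed member values were 7.84 and 5.09. The fitted difference was log2 -3.14 (SE 0.65, limma adjusted p = 0.0118). Because of the listed 0 values its size depends on the constant added, and it was log2 -1.95 when 5 was added in place of 1. The call held when any library was left out, with limma adjusted p from 0.00467 to 0.0484, so it also came near the threshold. The mean of the set, 18.4, passed the minimum of 10 only through the C libraries, as the N mean was 5.36.

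The tae-MIR1122c-p3 set (5 sequences) had counts of 76.1 in AuCG_C and 25.1 in AuCG_N, 72.3 in AuWH_C and 33.6 in AuWH_N, 99.7 in L6CG_C and 66.3 in L6CG_N, and 108.3 in L6WH_C and 36.4 in L6WH_N. The C libraries (89.1 ± 17.6, SD over 4 conditions) again all lay above the N libraries (40.3 ± 18.0). The level was 3.03-fold lower without nitrogen in AuCG, 2.15-fold in AuWH, 1.5-fold in L6CG and 2.98-fold in L6WH. The fitted difference was log2 -1.19 (SE 0.28, limma adjusted p = 0.0185). This call sat near the threshold. It was lost with quantile normalization (log2 -0.86, adjusted p = 0.0687) and when AuCG_C, AuCG_N, AuWH_C, L6CG_C, L6WH_C or L6WH_N was left out (log2 -1.28 to -1.04, adjusted p 0.0527 to 0.0654).

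**Figure D3:**
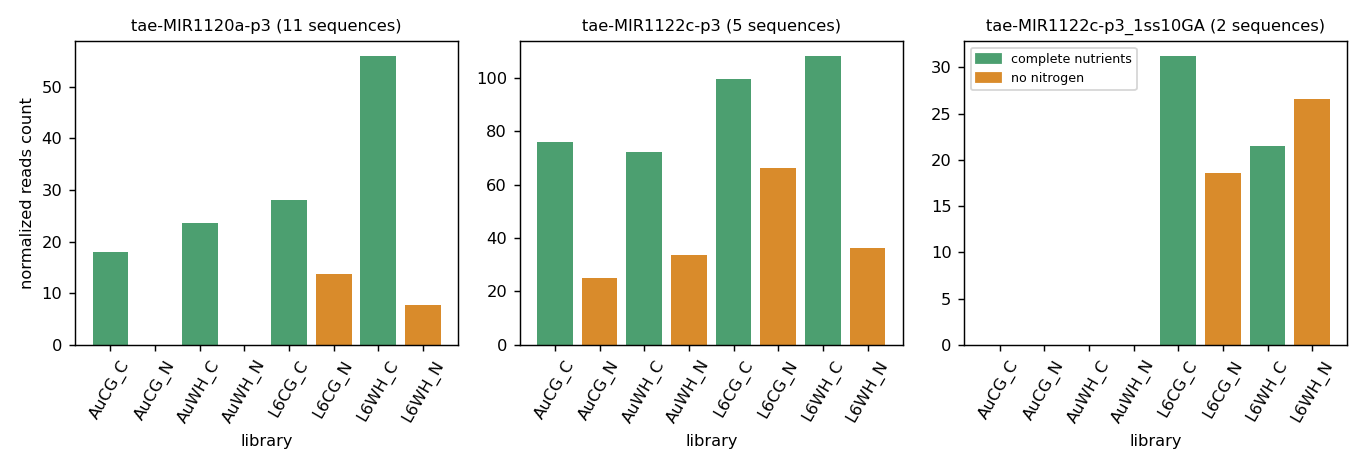
Normalized reads count (y axes, linear from 0) in the 8 libraries (x axes) for the 3 sets of values that passed a test, with green bars for complete nutrients and orange bars for no nitrogen. tae-MIR1120a-p3 and tae-MIR1122c-p3 were lower without nitrogen in every seed group, and tae-MIR1122c-p3_1ss10GA was listed at 0 in the 4 DBA Aurora libraries and at 18.5 to 31.2 in L6.

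Both called sets carry GACGGAGG in each of their sequences that was tested. Of the 26 tested members with GACGGAGG, 16 in 2 of 11 sets fell, of the 20 without it 0 fell, and of the 61 tested sequences of other families with GACGGAGG 2 fell. Counted in sets, the medians were log2 -0.25, -0.21 and -0.23. This comparison was chosen after the values were seen. Close relatives also differed, as tae-MIR1120a-p3_2ss20TC21TC, a 3′ arm product that also holds GACGGAGG, had a difference of log2 -0.48 (SE 0.29, adjusted p = 0.295). On the opposite arm tae-MIR1120a-p5_1ss8CT_1 had a difference of log2 -1.87 (SE 0.68, adjusted p = 0.0943), with counts of 17.9, 0, 15.8, 5.09, 19.4, 15.6, 28.7 and 9.74 in the order of libraries above. Its C libraries, at 15.8 to 28.7, lay above its N libraries, at 0 to 15.6.

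Counted by overlap, 20 tested members in 5 of the 28 sets had all 4 N libraries below all 4 C libraries, against 99 of 605 sequences (16.4%), and 0 members had them above, against 9.59%. The 5 sets were tae-MIR1120a-p3, tae-MIR1122c-p3, tae-MIR1120a-p5_1ss8CT, hvu-miR1120_L-4R+1_1ss10TC and tae-MIR1120a-p3_2ss20TC21TC. Like tae-MIR1120a-p3, tae-MIR1120a-p5_1ss8CT passed the minimum mean of 10 only through its C libraries (N mean 7.61). Its lowest C value was 15.78 and its highest N value 15.6. For tae-MIR1120a-p3_2ss20TC21TC these values were 23.71 and 23.4. Both gaps are smaller than 1 step in these libraries. Most of the 20 members are repeats of tae-MIR1120a-p3 (11 sequences) and tae-MIR1122c-p3 (5 sequences). Counted in sets, 5 of 28 lies near the 16.4% of all sequences, and the share over all sets was not counted. For miR1128, 0 of 31 tested sequences passed the nitrogen test in limma and 0 had an unadjusted p under 0.05. Among the MITE-like wheat families other than miR1120 and miR1122, miR1128 included, 7 of 84 sequences were called, all lower. Counted in sets these were 4 of 66, beside 2 of 28 for the members. The count of sequences was 5, 3 higher and 2 lower, with quantile normalization, 2 with the matched pairs as a block, 3 without L6WH_C and 2 when AuCG_C, AuWH_C, AuWH_N, L6CG_C or L6WH_N was left out.

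**Figure D4:**
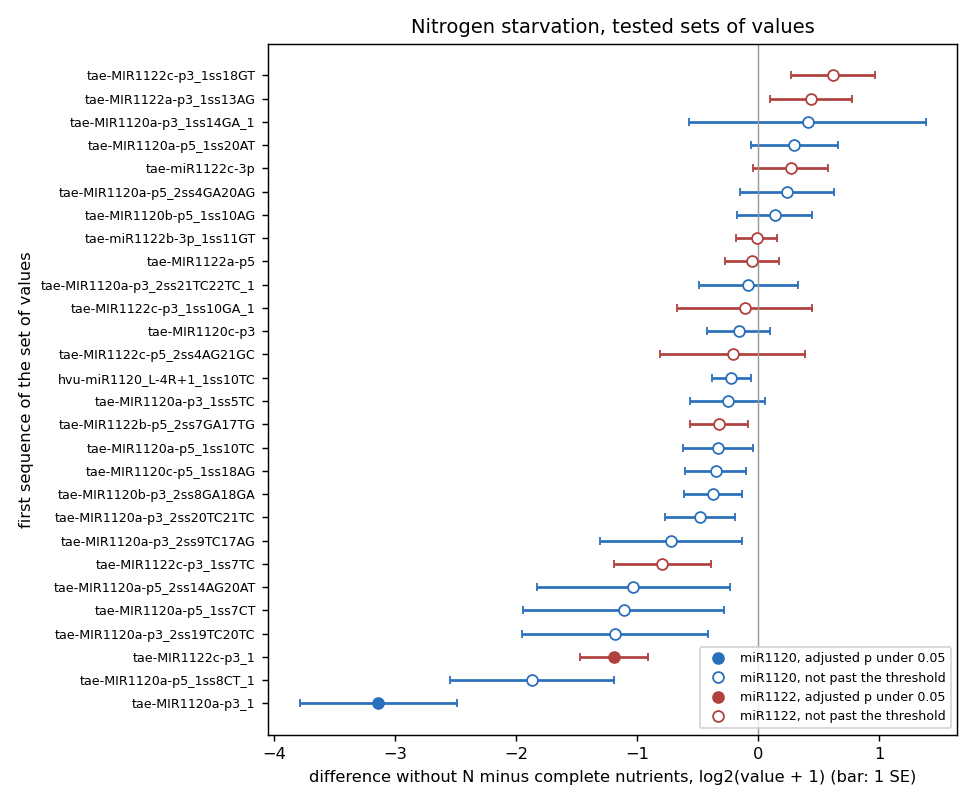
Fitted nitrogen difference (x axis, N minus C on the log2(count + 1) scale, bars 1 SE) for the 28 tested sets of values, each named by its first sequence (y axis). Blue is miR1120, red is miR1122, and filled points passed the test. The 2 filled points lie at -3.14 and -1.19, and the abundant members lie between -0.37 and 0.44.

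Summed over sequences, neither family passed the test for nitrogen. The miR1120 totals were 6618.2 in AuCG_C and 4257.5 in AuCG_N, 7786.2 in AuWH_C and 5181.6 in AuWH_N, 7377.6 in L6CG_C and 7904.5 in L6CG_N, and 7509.8 in L6WH_C and 5630.3 in L6WH_N. They were lower without nitrogen in 3 of 4 seed groups, with a fitted difference of log2 -0.38 (SE 0.21, limma adjusted p = 0.25 over 104 families, of which 25% were called). These totals add a shared set of values once for each of its sequences. Over distinct sets the difference was log2 -0.33 (limma adjusted p = 0.354). L6CG was the seed group that went the other way, and without L6CG_N the difference of the totals over sequences was log2 -0.57 (adjusted p = 0.0487). With quantile normalization it was log2 -0.07 (adjusted p = 0.828). The miR1122 totals were 6961.4 and 5454.6, 4542.6 and 5901.7, 4981.6 and 6750.4, and 7354.5 and 6052.4 for the same pairs. AuWH and L6CG were higher without nitrogen, AuCG and L6WH were lower, and the difference was log2 0.05 (SE 0.22, adjusted p = 0.941), or log2 -0.16 with equal library totals and 0.34 with quantile normalization. These totals followed the abundant members, while both called sets lay among the low ones. Over the sets with means under 100, the miR1120 3′ arm summed to 180.1 to 283.7 in the C and 114.4 to 166.9 in the N libraries, and the 5′ arm to 162.4 to 243.0 and 119.1 to 270.2. The miR1122 3′ arm summed to 221.5 ± 61.9 in the C and 174.4 ± 18.5 in the N libraries, and its 5′ arm to 36.8 ± 13.7 and 32.3 ± 23.1 (SD over 4 conditions), with overlap between C and N on both arms. Each 3′ arm sum includes the called set of its family, tae-MIR1120a-p3 or tae-MIR1122c-p3. Sums without these sets were not taken, so the 3′ arm sums do not show a fall of the other low members.

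Parental water deficit and heat left no member past the test. In limma 0 of 46 members and 0 of 605 sequences were called (0%), with 0 members and 10 sequences at an unadjusted p under 0.05. The members of lowest p were tae-MIR1120a-p3_2ss21TC22TC_1 (log2 0.92, SE 0.41) and tae-MIR1120a-p5_1ss7CT (log2 1.45, SE 0.83) in miR1120, and tae-MIR1122c-p3_1ss7TC (log2 -0.69, SE 0.40) and tae-miR1122c-3p (log2 -0.25, SE 0.31) in miR1122, with adjusted p of 1 for each in limma. The family totals differed by log2 0.01 (SE 0.21) for miR1120 and -0.02 (SE 0.22, or 0.07 with equal library totals) for miR1122, with adjusted p = 0.967 for both in limma, where 0% of the 104 families were called. A single low member, tae-MIR1120a-p5_2ss1GC22AG, was listed in the 4 libraries from stressed parents, at 6.58 in AuWH_C, 7.13 in AuWH_N, 4.31 in L6WH_C and 5.85 in L6WH_N, and at 0 in the 4 from control parents. These values lie at or near the lowest listed levels, and 4 of all 1473 sequences (0.272%) showed the pattern. The interaction of parental stress with nitrogen and that of genotype with parental stress had 0 calls among the 605 sequences in limma (0%), with 10 and 19 sequences and 0 members at an unadjusted p under 0.05.

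Between the genotypes, 2 members in 1 set of values were called, both higher in L6, among 16 of 605 sequences (2.64%), of which 14 were higher in L6 (2.31%) and 2 lower (11 and 4 with quantile normalization). Counted in sets it was 1 of 28, against 2.79% of all sets. These are the 2 sequences listed as tae-MIR1122c-p3_1ss10GA. They were listed at 0 in AuCG_C, AuCG_N, AuWH_C and AuWH_N, where the lowest listed member values were 4.47 to 7.84, and at 31.2 in L6CG_C, 18.5 in L6CG_N, 21.5 in L6WH_C and 26.6 in L6WH_N. Each L6 value lay above the highest of those DBA Aurora limits. The fitted difference was log2 4.65 (SE 0.56, limma adjusted p = 0.00291) and log2 2.54 when 5 was added in place of 1, so its size follows the constant. With a mean of 12.2 the set passed the minimum mean of 10 only through its L6 values. The DBA Aurora values, all listed at 0, have no spread, so the p-value is no support beyond the listing itself. Over the length they share, each sequence differs by G10A from a tae-MIR1122c-p3 sequence, and the changed position, in capitals below, lies within GACGGAGG, so that neither variant holds these letters.
tae-MIR1122c-p3_1: atattatggGacggagggagt
tae-MIR1122c-p3_1ss10GA_1: atattatggAacggagggagt
tae-MIR1122c-p3_5: ttatgggacGgagggagtagt
tae-MIR1122c-p3_1ss10GA_2: ttatgggacAgagggagtagta

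The unchanged tae-MIR1122c-p3 set, in contrast, was listed in all 8 libraries and differed between the genotypes by log2 0.61 (SE 0.28, limma adjusted p = 0.388). The changed base was not confined to L6. A longer product of 24 nt, tae-MIR1122c-p3_1ss12GA, holds all of tae-MIR1122c-p3_1ss10GA_2, the changed base included. It was listed at 4.47 in AuCG_C and 4.31 in L6WH_C, at or near the lowest listed values, and at 0 elsewhere. A second set, hvu-MIR1120-p3_1ss23TG, was also listed in L6 only, at 8.62 in L6CG_C, 5.85 in L6CG_N, 5.75 in L6WH_C and 10.4 in L6WH_N. It was too low to test, and its values overlap the lowest listed values of the DBA Aurora libraries. Listing in all 4 L6 and no DBA Aurora libraries was seen for 3 members in 2 sets, against 11 of 1473 sequences (0.747%), and the reverse for 0 members and 3 sequences (0.204%). In miR1120 the members of lowest p were the tae-MIR1120a-p3 set (log2 2.21, SE 0.65, limma adjusted p = 0.156) and tae-MIR1120a-p5_1ss8CT_1 (log2 1.45, SE 0.68, limma adjusted p = 0.399), both with higher fitted levels in L6.

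In the tae-MIR1120a-p3 set the nitrogen effect differed between the genotypes by log2 2.59 (SE 0.91, limma adjusted p = 0.702). Both N libraries of DBA Aurora were listed at 0, which may stand for any level below 7.84 in AuCG_N and 5.09 in AuWH_N. The size of this difference therefore depends on how the 0 values are taken. For this interaction 0 members were called, and 12 members in 2 sets had an unadjusted p under 0.05, or 1 member with quantile normalization. The genotype difference lay above 0 for 18 of the 28 tested sets, with a median of log2 0.28. Over all tested sets the median was 0.04. Of the 605 sequences, 316 lay above 0, or 356 with equal library totals and 271 with quantile normalization. The family totals differed by log2 0.28 (SE 0.21, limma adjusted p = 0.587) for miR1120 and 0.14 (SE 0.22, limma adjusted p = 0.861) for miR1122, while 2.88% of the 104 families were called.

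How many members were listed above 0 differed widely between libraries, from 46 of 115 (40%) in AuCG_N to 102 of 115 (88.7%) in L6WH_N, or from 37 to 77 of the 89 sets. For all 1473 sequences the shares were 50.1% and 80.2% in these libraries. Between them came AuWH_C with 58 members, AuWH_N with 61, L6CG_N with 66, L6CG_C with 77, AuCG_C with 79 and L6WH_C with 87. The size of the step moved with these numbers. It was highest in AuCG_N (1.57) and AuWH_C (1.31), the 2 libraries with the fewest members, and lowest in L6WH_C (0.718) and L6WH_N (0.649), the 2 with the most, and in the L6 libraries (0.649 to 1.08) it was mostly below that in DBA Aurora (0.895 to 1.57). Its part in the listings at 0 and in the genotype differences of low members was not tested. miR1120 ran from 21 members in AuCG_N to 65 in L6WH_N. miR1122 ran from 18 in AuWH_C to 37 in L6WH_N, with 25 in AuCG_N. Of the members, 27 in 22 sets were listed in all 8 libraries, and 23 in 17 sets in 2 libraries or fewer.

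**Figure D5:**
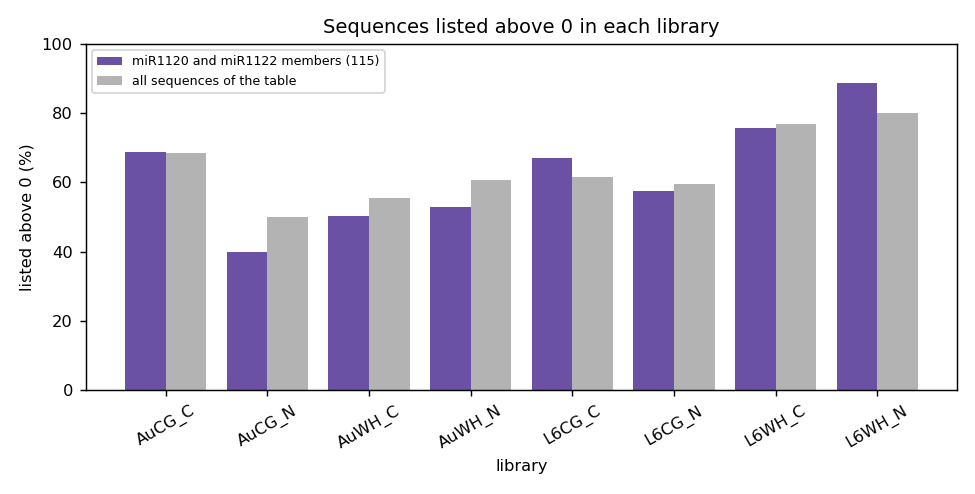
Share of sequences listed above 0 (y axis, %) in the 8 libraries (x axis), with purple bars for the 115 members and grey bars for all 1473 sequences of the table. The members' share ran from 40% in AuCG_N to 88.7% in L6WH_N.

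The study's own way of comparing was also applied, which sets single libraries against each other by Fisher's exact test (two-sided p under 0.05) and a change of more than log2 1. It compares those libraries and not the conditions, and it takes a value listed at 0 as 0.01. Between C and N, 8 members were higher and 47 lower in AuCG, 9 and 25 in AuWH, 8 and 35 in L6CG, and 4 and 32 in L6WH. In sets these were 7 and 28, 9 and 10, 7 and 23, and 4 and 16. The members past the rule made up 47.8%, 29.6%, 37.4% and 31.3% of the 115, against 44.2%, 31.5%, 36.3% and 32.5% of all 1473 sequences. These shares lie near the background. The background was not split by direction here, and the paper reports more down-regulated than up-regulated miRNAs in each of these comparisons. Of the 55 members past it in AuCG, 45 were listed at 0 in 1 of the 2 libraries.

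The members past the rule in all 4 nitrogen pairs and in 1 direction were the 11 sequences of tae-MIR1120a-p3, that is 1 set, against 92 of 1473 sequences (6.25%). For parental stress this held for 1 member, tae-MIR1120a-p5_2ss1GC22AG (0.272% of all sequences), and for genotype for 3 members, hvu-MIR1120-p3_1ss23TG and the 2 sequences of tae-MIR1122c-p3_1ss10GA (1.22% of all sequences). When a count of 100 or more was asked of 1 library of each pair, 0 members passed in all 4 pairs for any of the 3 factors. Of all 1473 sequences, 32 (2.17%) passed for nitrogen, 0 for parental stress and 4 (0.272%) for genotype. With 8 members at a mean of 100 or more, 0 members says little about the families.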

How the data were processed

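Small RNA libraries (TruSeq kit, single-end reads, 1 library for each of 8 conditions) had been annotated by the authors with ACGT101-miR against miRBase and the Svevo.v1 genome. The deposited values are normalized reads counts, a signal scaled by the authors with a factor per library whose rule the sources read here do not state. Raw counts were not analysed here, so edgeR was not run. The members, lists and tests were chosen with earlier results of these data known.

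Entries with the same sequence were merged (1532 entries, 1473 sequences). Members were chosen by the family number in their name. limma 3.58.1 (R 4.3.3, trend) fitted nitrogen, parental treatment and genotype to log2(count + 1) for 605 sequences with a mean of at least 10, with Benjamini-Hochberg adjustment at 0.05, each interaction added in turn. The residual is the unmodelled difference between single pooled libraries, so p-values assume small interactions. Precursors were folded with RNAfold 2.7.2, and Fisher tests used SciPy 1.17.1. The fit and the pairwise rule were tried on simulated data. Those data had no lowest listed level and no repeated sets of values, so the trial does not cover these features.

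A step, read as the worth of 1 read, was taken from the spacing of low values, of which 94.9% to 97.8% were whole multiples. Whole reads were not recovered over the whole table, so the step is an estimate. Named were members with a mean of 100 or more, those past a test (or the 2 of lowest p per family), those listed in all libraries of 1 factor level and no other, and those showing a sequence feature. Alternatives were other scalings, constants and filters, distinct sets of values, a block of matched pairs and leaving out each library. Coordinates were not used here.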

Additional observations from a re-analysis of the deposited data

How the results depend on the processing

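The 16 nitrogen calls were 16 with equal library totals, 11 with quantile normalization, 18 with 5 added in place of 1, and 16 with no filter and with the 4 matched pairs as a block. They were 5 with a minimum mean of 20, under which tae-MIR1120a-p3 was no longer tested, and 2 when each set of values was counted once. Leaving out 1 library gave 11 to 18. The 2 genotype calls became 0 with a minimum mean of 20, where the set was no longer tested, and 1 counted by sets, and were 2 under each omission of a library. Parental stress had 0 calls throughout, and so did the 3 interactions under each alternative run for them. The block of matched pairs changed no member's call, and over all sequences it gave 133 nitrogen and 13 genotype calls in place of 151 and 16.

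Family totals changed sign near 0. miR1122 for nitrogen was log2 -0.16 with equal totals and -0.11 as a mean of log2 values, and for parental stress 0.07 and 0.03. miR1120 for parental stress was -0.0034 over distinct sets. Leaving out 1 library gave miR1120 -0.57 to -0.26 (nitrogen), -0.11 to 0.20 (parental stress) and 0.10 to 0.39 (genotype), and miR1122 -0.11 to 0.20, -0.18 to 0.13 and -0.00058 to 0.30. Of these, miR1120 for nitrogen passed without L6CG_N. Equal totals moved the median nitrogen difference of all sequences from log2 -0.06 to -0.24 (0.17 with quantile normalization) and that of the 46 members from -0.60 to -0.80 (-0.29), where repeated sets weigh in full.

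The pairwise counts in all 4 pairs (11, 1 and 3 for nitrogen, parental stress and genotype) were 0, 0 and 0 with a minimum of 100 and 1, 1 and 2 by sets, and did not change with the chi-square test. Over all sequences the minimum of 100 left 32, 0 and 4. Where no cause is stated, the cause was not tested. No count model could be run, and levels below 5 steps were not listed for any member.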
